A study of Homo sapiens with 6 samples.

Results

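Cytosolic ribosomal protein genes encode the proteins that assemble with ribosomal RNA into the small and large subunits of the ribosome, the particle that translates the mRNA of nuclear genes. Genes were taken by symbol: RPL (large subunit) or RPS (small subunit) followed by a number and optionally A, X or L, together with RPLP0, RPLP1, RPLP2 and RPSA, leaving out pseudogenes and the RPS6K kinases. On the arrays, 56 such genes had a probe set with a single gene symbol, 35 of the large and 21 of the small subunit, among 19775 genes measured in this way. A gene with several was represented by its brightest on average across the 6 arrays. RefSeq lists 81 genes that meet the rule. The other 25, among them RPLP0, RPL5, RPL10 and RPSA, had no single-symbol probe set and were not analysed here.

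All 6 arrays came from SK-N-AS, an established human neuroblastoma cell line that the labels write as SKNAS, and the series compares its stem cell phenotype between 3 cultures. Monolayer cells grew attached, without pretreatment. Sphere cells, also without pretreatment, grew as spheroids in medium without serum. iCSC cells, whose abbreviation the labels do not expand, received 5AdC at 2.5 uM for 5 days as a monolayer. They were then put into the same kind of serum-free spheroid culture. 5AdC is a deoxycytidine analog that traps and depletes DNA methyltransferases. Each culture has 2 arrays (n = 2 throughout). The labels do not say that these came from separate cell cultures, so p-values measure only the spread between arrays, which may be technical, and the number of arrays limits the precision. Sphere against Monolayer compares serum-free spheroids with attached cells, iCSC against Sphere compares spheroids with and without 5AdC beforehand, and iCSC against Monolayer combines both differences. The first and the last of these share the Monolayer arrays, and each other pair shares a culture too.

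Values are log2 GCRMA signals. Pearson's r over the tested genes was 0.984 to 0.996 between arrays of a culture and 0.729 to 0.859 between arrays of different cultures. Of 7 adrenergic neuroblast markers with a probe set, 2 stood at log2 5 or more on both arrays of Monolayer and 6 in Sphere and in iCSC, with summed signals of 35.6 to 36.1, 60.6 to 64.0 and 48.0 to 49.1. DBH, which makes noradrenaline, was not among those present in any culture. Of 8 mesenchymal neuroblastoma markers, 7, 6 and 6 were present, with sums of 73.1 to 74.5, 66.5 to 67.8 and 69.96 to 72.3. These sums hide members that moved in opposite directions. From Monolayer to Sphere, mean PRRX1 rose from 7.53 to 11.95 and TWIST1 from 10.58 to 12.42, while FOSL1, SNAI2, VIM, FN1 and YAP1 fell. On the adrenergic list, GATA3 and ISL1 were lower in iCSC than in Monolayer (8.19 against 8.44 and 7.85 against 8.99). Endothelial markers were all under the limit, the epithelial list showed KRT18 alone, and the leukocyte list showed PTPRC alone, in Monolayer and Sphere (sums 22.5 to 22.7 and 23.2 to 23.4, against 13.6 to 13.7 in iCSC). The difference between 3' and 5' probe sets of ACTB was 1.16 to 1.25 in Monolayer and Sphere and 1.40 and 1.47 in iCSC. These values move with the cultures, and their part in the results was not tested.

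Ribosomal protein mRNAs are among the most abundant in growing cells, because each ribosome needs 1 copy of nearly every protein. Most of them begin with a 5' terminal oligopyrimidine (TOP) tract, a cytosine at the start followed by an unbroken run of pyrimidines, through which the kinase mTORC1 and the protein LARP1 control their translation together. This control acts on translation and stability, and a steady level of such mRNA says nothing of how much protein is made from it. In bulk RNA, fewer cells of a kind and less RNA per cell cannot be told apart.

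The starts of the genes on which the results turn are shown because the TOP tract is the feature that the family shares outside its coding sequence. Sequences are from the RefSeq promoter table for GRCh38.p14, read 5' to 3' on the gene's strand, from 10 bases before the annotated start through the first 20 bases of the transcript. Capitals mark the unbroken pyrimidine run that begins at the annotated start.
RPS6 (chr9:19380217-19380246, minus strand): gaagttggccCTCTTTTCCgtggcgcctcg
RPL37A (chr2:216498834-216498863, plus strand): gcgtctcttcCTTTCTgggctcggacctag
RPL12 (chr9:127451387-127451416, minus strand): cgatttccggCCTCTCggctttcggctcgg
RPL35 (chr9:124861938-124861967, minus strand): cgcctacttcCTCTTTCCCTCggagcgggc
RPLP1 (chr15:69452808-69452837, plus strand): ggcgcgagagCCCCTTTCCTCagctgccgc
RPL22 (chr1:6199576-6199605, minus strand): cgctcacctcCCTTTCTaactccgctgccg
RPS27 (chr1:153990752-153990781, plus strand): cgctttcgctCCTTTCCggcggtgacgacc
RPS27L (chr15:63157458-63157487, minus strand): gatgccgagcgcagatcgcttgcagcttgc
RPS29 (chr14:49598691-49598720, minus strand): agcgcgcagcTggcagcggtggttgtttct
RPS15 (chr19:1438386-1438415, plus strand): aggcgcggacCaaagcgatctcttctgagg
RPL3 (chr22:39319604-39319633, minus strand): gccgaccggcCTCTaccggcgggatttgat

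Of the 56 genes, 48 had an entry in that table. In 34 of the 48 (70.8%), at least 1 annotated start was a C followed by 4 or more pyrimidines, searched on the transcribed strand only. The share was 5.14% among all 27305 genes of the table and 7.73% among the 8665 tested genes with an entry. In the lines above, RPS27 has such a start and its paralog RPS27L begins without a pyrimidine. The annotated start decides this search, so RPS29 and RPS15, with a single pyrimidine at the listed base, show only that these letters are not in this place. RPL3 misses the search by 1 base.

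The chosen probe sets of 49 of the 56 genes had a mean signal of 13.52 to 15.84, close to the highest value on each array (16.27 to 16.58), against a median of 8.92 over all tested genes. A probe set entered the test when it reached log2 5 on at least 2 of the 6 arrays, which 53 of the 56 did. These 53 were above that limit on all 6 arrays, so none entered through a single culture. RPL10L and RPL3L, the testis and striated muscle counterparts of RPL10 and RPL3, stayed below it on every array, at 2.47 to 2.79 and 2.24 to 2.27. The only single-symbol probe set of RPL36A also stayed below, at 3.09 to 3.31. Among the tested genes, RPL27A (8.48), RPL39L (6.93) and RPLP2 (6.53) read lower than the rest, and signals of different probe sets are not compared as amounts of mRNA.

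As a family, ribosomal protein mRNAs differed little as deposited between attached cells, spheroids and 5AdC-pretreated spheroids. The median difference over the 53 tested genes was 0.03 on the log2 scale for Sphere against Monolayer and 0.04 for iCSC against Sphere. For iCSC against Monolayer it was 0.06 (0.05 over all 56). The medians over all 10459 tested genes were 0.01, 0.01 and 0.02. The SD of the family's median between arrays of a culture was 0.09, larger than each of these shifts. Without Sphere 1 the first median was -0.02, and the second was -0.04 without Sphere 2 and 0.00 in size without iCSC 1. With arrays centred on the brightest other genes, the median over the 53 tested members was 0.15 in Sphere and 0.14 in iCSC against Monolayer, where this centring moved every gene by 0.12 and 0.07.

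Single members moved little as well. The median size of a tested member's difference was 0.09 for Sphere against Monolayer, 0.07 for iCSC against Sphere and 0.13 for iCSC against Monolayer. Over all tested genes it was 0.53, 0.34 and 0.49. Of the 53 tested members, 43, 46 and 43 differed by less than 0.25, which holds for 27.7%, 40.2% and 30.01% of all tested genes. A difference above 1 was measured in 1 member, RPS27L in Sphere against Monolayer, while 28.9% of all tested genes exceeded 1 in that comparison. The other 279 genes with a mean signal of at least 13 also moved less than all genes, with median sizes of 0.24, 0.16 and 0.23. The median sizes of the 49 members in that range were 0.09, 0.07 and 0.13.

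**Figure D1:**
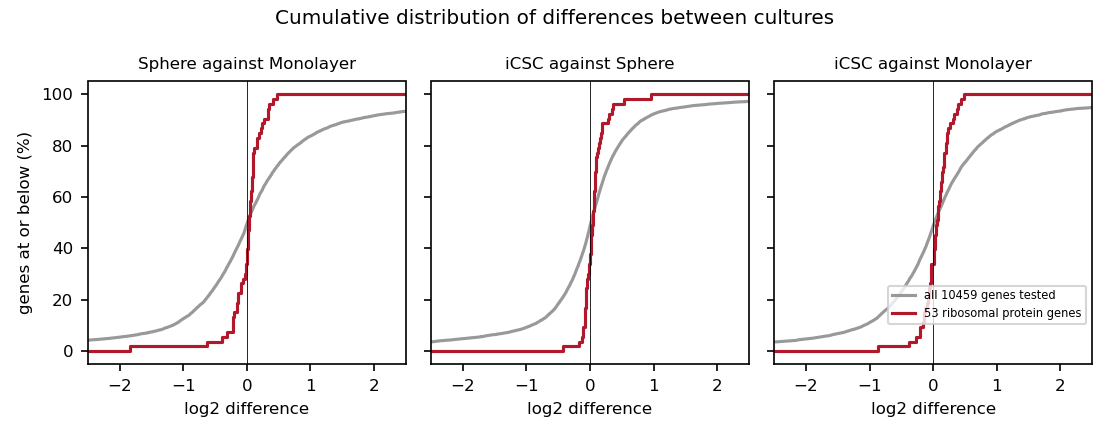
Cumulative share of genes (vertical axis, percent) at or below each log2 difference (horizontal axis) for the 53 tested ribosomal protein genes (red) and all 10459 tested genes (grey), 1 panel per comparison. The red curves rise steeply around 0, with median sizes of 0.09, 0.07 and 0.13 against 0.53, 0.34 and 0.49 for all genes. RPS27L is the lone step at -1.84 in the panel of Sphere against Monolayer.

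The arrays of a culture differed across the family in the same direction. Replicate 1 read above replicate 2 for 46 of 56 members in Monolayer, 48 in Sphere and 45 in iCSC. Over all tested genes the shares were 60.7%, 53.9% and 48.8%. The members' median gap was 0.02, 0.13 and 0.07, against 0.04, 0.02 and -0.01 over all tested genes. In Monolayer the gap over all tested genes was the larger. The median over all members was 14.69 and 14.66 in Monolayer, 14.85 and 14.67 in Sphere, and 14.83 and 14.69 in iCSC. Sphere 1 and iCSC 1 were thus the highest arrays for the family as a whole.

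**Figure D2:**
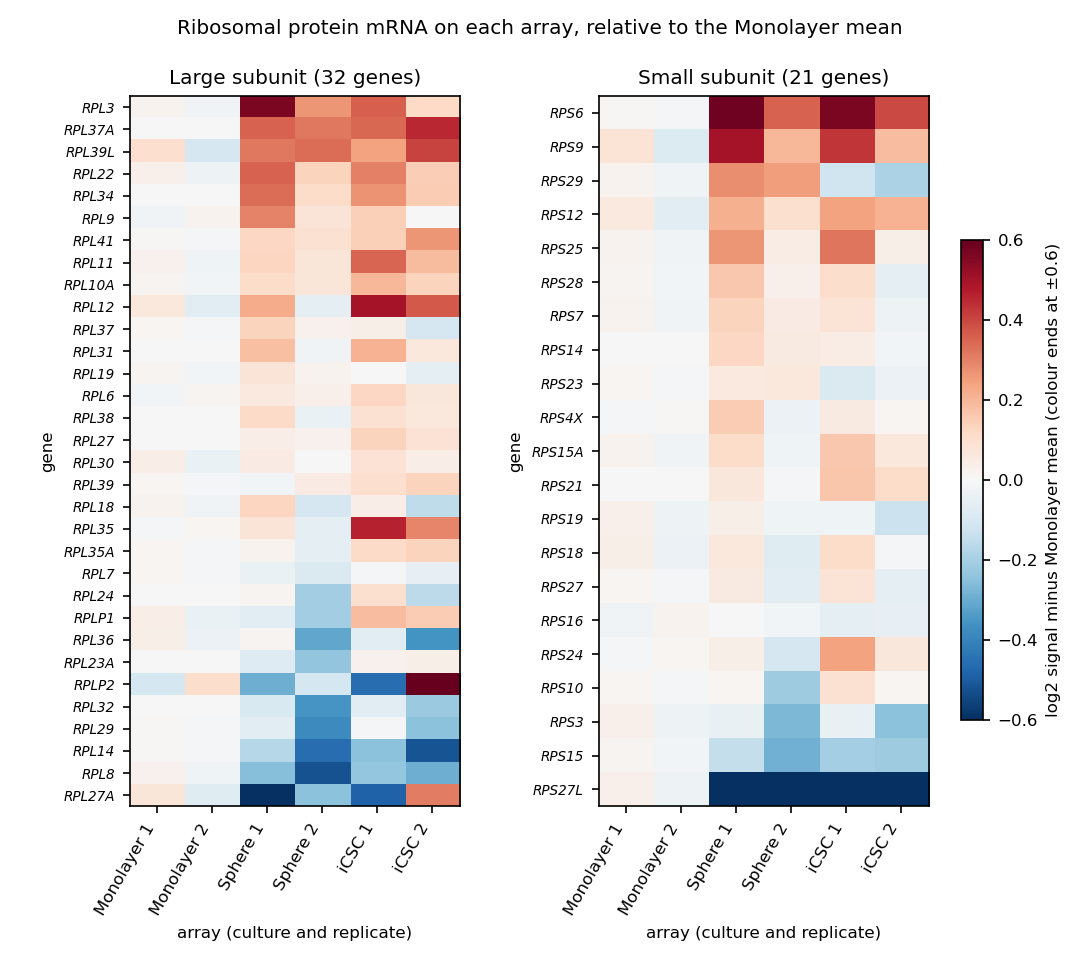
Log2 signal of each tested ribosomal protein gene on each array minus its Monolayer mean (colour, red above and blue below, ends at 0.6 in either direction), with genes in rows ordered by Sphere minus Monolayer and arrays in columns, for 32 large and 21 small subunit genes. Most cells are pale, RPS27L is dark blue on all Sphere and iCSC arrays, and Sphere 1 and iCSC 1 are redder than Sphere 2 and iCSC 2 in many rows.

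In Sphere against Monolayer, the small-subunit paralog RPS27L fell, RPL8 and RPS15 fell by less, and RPS6, RPL3, RPL37A and RPS29 rose. A gene was called at a limma p under 0.05 after Benjamini-Hochberg adjustment over all 10459 tested genes. By this rule 4 of 53 tested members (7.55%) were higher, where 30.0% of all tested genes were, and 3 (5.66%) were lower, where 29.1% of all tested genes were. At an unadjusted p under 0.05 there were 11 members. The split depended on the scaling: with arrays centred on the brightest other genes, which moved every gene by 0.12, 17 were higher and 2 lower, and with renewed quantile normalization 5 were higher and 6 lower. The count of higher members was 2 without Monolayer 2 and 8 without Sphere 2, and that of lower members was 1 without Monolayer 1, 1 without Monolayer 2 and 7 without Sphere 1. In simulated arrays of this design, 2% of 1.2-fold, 24% of 1.5-fold and 68% of 2-fold changes were recovered in this comparison. Each fold was given to 50 of 10459 genes, and 100 genes were called. In the data 3134 genes were called higher and 3042 lower, so the adjusted cutoff was stricter in the simulation. RPS29 and RPS15 were called in the data at log2 differences of 0.26 and -0.21. The simulated shares are also over all genes, so they do not give the recovery of members here. The missing call of a member with a small difference does not show that it was level.

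RPS27L encodes a paralog of the small-subunit protein RPS27 and is a known target gene of p53. Its signal was 13.22 and 13.16 in Monolayer, 11.28 and 11.43 in Sphere, and 12.32 and 12.31 in iCSC. All arrays of the 3 cultures were separate, with Monolayer highest, Sphere lowest and iCSC between them. Sphere was 3.57-fold lower than Monolayer (log2 -1.84, SE 0.08, limma adjusted p = 5.69e-06), and iCSC was 1.95-fold above Sphere (0.96, SE 0.08, adjusted p = 0.000211) and 1.83-fold below Monolayer (-0.87, SE 0.08, adjusted p = 0.000206). A further probe set of the gene gave -2.18, 1.19 and -0.99 (adjusted p over probe sets 9.46e-05, 0.00299 and 0.00346), and another probe set stayed below the limit on every array. These calls remained without any single array and under every other alternative that held the gene. The fit without x_at and s_at probe sets did not hold it, because the passing probe sets of RPS27L carry the suffix s_at.

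RPS27 itself, a zinc-binding protein of the small subunit, read 15.68 and 15.65 in Monolayer, 15.72 and 15.60 in Sphere, and 15.75 and 15.61 in iCSC. The cultures overlapped, and the differences were -0.01, 0.02 and 0.01 (SE 0.07, adjusted p = 0.960, 0.862 and 0.882). The difference between the changes of RPS27L and RPS27 was not itself tested.

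RPS6, the small-subunit protein that S6 kinases phosphorylate downstream of mTORC1, read 14.27 and 14.26 in Monolayer, 14.85 and 14.62 in Sphere, and 14.83 and 14.66 in iCSC. Both spheroid cultures lay above Monolayer and overlapped each other. The rise was 0.47 in Sphere (SE 0.10, limma adjusted p = 0.00571) and 0.48 in iCSC (SE 0.10, adjusted p = 0.00581), and iCSC and Sphere differed by 0.01 (adjusted p = 0.944). Its other bright probe sets gave 0.49 and 0.59 in Sphere. Both calls held without any single array. With chromosome medians removed, the rise in iCSC was 0.09 (adjusted p = 0.465) and that in Sphere 0.51 (adjusted p = 0.00337). Without variance moderation the adjusted p was 0.0572 in Sphere and 0.0592 in iCSC, with ranges over all alternatives of 0.00194 to 0.0572 and 0.00199 to 0.465.

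RPL37A, a zinc-finger protein of the large subunit, read 15.14 and 15.14 in Monolayer, 15.49 and 15.46 in Sphere, and 15.48 and 15.59 in iCSC. The gain over Monolayer was 0.34 in Sphere (SE 0.06, adjusted p = 0.00335) and 0.40 in iCSC (SE 0.06, adjusted p = 0.00182), without overlap of the arrays. Neither call was lost by leaving out an array. With chromosome medians removed both were lost, at 0.02 and 0.10 (adjusted p = 0.869 and 0.273), and the call in Sphere was also lost without x_at and s_at probe sets (adjusted p = 0.296) and with the mean over probe sets (0.772). The ranges over all alternatives were 0.000761 to 0.869 in Sphere and 0.000749 to 0.273 in iCSC. RPL3, which helps form the peptidyl transferase centre of the large subunit, read 14.15 and 14.11 in Monolayer, 14.69 and 14.40 in Sphere, and 14.49 and 14.25 in iCSC. It rose in Sphere by 0.42 (SE 0.12, adjusted p = 0.0234), while iCSC stood 0.24 above Monolayer (SE 0.12, adjusted p = 0.134).

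RPS29, a zinc-binding protein next to the mRNA path of the small subunit, was called higher in Sphere than in Monolayer and lower in iCSC than in Sphere. It read 14.70 and 14.66 in Monolayer, 14.96 and 14.93 in Sphere, and 14.56 and 14.49 in iCSC. No culture overlapped another. Sphere was 0.26 above Monolayer (SE 0.06, limma adjusted p = 0.00807), and iCSC was 0.42 below Sphere (SE 0.06, adjusted p = 0.00217) and 0.15 below Monolayer (SE 0.06, adjusted p = 0.0636). The last pair of differences turned when chromosome medians were removed, to 0.24 (adjusted p = 0.0308) and 0.47 (adjusted p = 0.00133).

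RPL8, a large-subunit protein near the peptidyl transferase centre, read 15.00 and 14.95 in Monolayer, 14.71 and 14.45 in Sphere, and 14.74 and 14.68 in iCSC. It fell in Sphere by 0.39 (SE 0.09, adjusted p = 0.0116), and its difference in iCSC was -0.26 (SE 0.09, adjusted p = 0.0507). RPS15, needed for maturation of the small subunit, read 15.43 and 15.40 in Monolayer, 15.28 and 15.13 in Sphere, and 15.21 and 15.21 in iCSC. It was lower in both spheroid cultures, at -0.21 in each (SE 0.07, adjusted p = 0.0298 in Sphere and 0.0354 in iCSC).

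Several of these calls in Sphere were lost without single arrays, with differences that kept their direction and, without a Monolayer array, nearly their size. RPL3 lost its call without Monolayer 1 (adjusted p = 0.0878), Monolayer 2 (0.109) or Sphere 1 (0.113), with differences of 0.44, 0.40 and 0.27 and a range of 0.00477 to 0.125 over all alternatives. RPL8 lost it without Monolayer 1 (0.0727) or Monolayer 2 (0.0505), with differences of -0.36 and -0.41, range 0.00237 to 0.130. RPS15 lost it without Monolayer 1 (0.138), Monolayer 2 (0.0936) or Sphere 2 (0.0999), with differences of -0.20, -0.23 and -0.14, range 0.0139 to 0.255. RPS29 lost it without Monolayer 2 (0.0614), with a difference of 0.24, range 0.00169 to 0.0638.

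In iCSC against Sphere, the comparison of spheroids with and without 5AdC pretreatment, RPL35, RPL12 and RPLP1 rose together with RPS27L, and RPS29 fell. Of 53 tested members 4 (7.55%) were called higher, where 19.3% of all tested genes were, and 1 (1.89%) was called lower, where 19.2% were. The count of higher members was 1 without Sphere 2, and centring on the brightest other genes gave 3 higher and 2 lower. RPL35, which sits at the rim of the tunnel through which the new protein leaves the ribosome, read 14.06 and 14.08 in Monolayer, 14.14 and 14.01 in Sphere, and 14.53 and 14.36 in iCSC. iCSC stood clear of both other cultures, which overlapped each other. The rise was 0.37 over Sphere (SE 0.08, limma adjusted p = 0.0138; without Sphere 2, 0.0728; range over alternatives 0.00768 to 0.582).

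RPL12, a protein at the base of the stalk that recruits translation factors, read 14.03 and 13.90 in Monolayer, 14.18 and 13.91 in Sphere, and 14.46 and 14.33 in iCSC. Its difference of 0.35 (SE 0.11, adjusted p = 0.0443) lost the call without any one of Monolayer 1 (0.0748), Monolayer 2 (0.0752), Sphere 2 (0.178), iCSC 1 (0.144) or iCSC 2 (0.0535), range 0.00893 to 0.522. Without a Monolayer array the difference itself stays 0.35, since that culture only adds to the estimate of the spread. RPLP1, an acidic protein of the stalk itself, read 15.20 and 15.12 in Monolayer, 15.10 and 14.95 in Sphere, and 15.34 and 15.31 in iCSC. Its rise was 0.30 (SE 0.07, adjusted p = 0.0156), with the call lost without Sphere 2 (0.0609) or iCSC 1 (0.0504), range 0.00735 to 0.134. RPLP2, its partner in the stalk, was measured by a dim probe set at 6.28 and 6.47 in Sphere and 6.12 and 7.18 in iCSC, and the arrays overlapped.

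In iCSC against Monolayer, RPS6, RPL12, RPL37A, RPL35, RPL11, RPS12, RPL41 and RPL10A rose, and RPS27L, RPL14 and RPS15 fell. These are 8 of 53 tested members higher (15.1%), where 29.0% of all tested genes were, and 3 lower (5.66%), where 26.6% were. The count of higher members was 3 without Monolayer 1, 3 without Monolayer 2 and 4 without iCSC 1, and that of lower members was 1 without Monolayer 1, Monolayer 2 or iCSC 2. Centring on the brightest other genes gave 17 higher and 1 lower, centring on the median of all tested genes 5 and 5, and renewed quantile normalization 7 and 5. RPL12 gained 0.43 (SE 0.11, limma adjusted p = 0.0145) and RPL35 0.38 (SE 0.08, adjusted p = 0.00809). RPL12 lost its call without Monolayer 2 (0.0955) or iCSC 1 (0.0595), range 0.00234 to 0.758, and RPL35 without Monolayer 1 (0.0559), range 0.00479 to 0.862.

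RPL11, which with RPL5 and the 5S RNA forms the particle that can bind MDM2 and so stabilise p53, read 14.52 and 14.46 in Monolayer, 14.62 and 14.56 in Sphere, and 14.84 and 14.68 in iCSC. The 3 cultures did not overlap. The rise over Monolayer was 0.27 (SE 0.07, adjusted p = 0.0198) and was lost without Monolayer 1 (0.0702), Monolayer 2 (0.113) or iCSC 1 (0.0700), range 0.00828 to 0.141. RPS12 gained 0.23, RPL41, a very short basic protein, 0.20, and RPL10A 0.17 (adjusted p = 0.0363, 0.0324 and 0.0453).

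RPL14, a large-subunit protein, read 14.72 and 14.70 in Monolayer, 14.54 and 14.25 in Sphere, and 14.46 and 14.19 in iCSC. It was 0.38 lower in iCSC (SE 0.12, adjusted p = 0.0360), and its difference in Sphere was -0.32 (adjusted p = 0.0641). The calls of RPL14, RPS15, RPS12, RPL41 and RPL10A were each lost without Monolayer 1 or without Monolayer 2. Without Monolayer 1 their adjusted p was 0.141, 0.157, 0.0580, 0.115 and 0.136, and without Monolayer 2 it was 0.126, 0.107, 0.205, 0.139 and 0.190. They were also lost without iCSC 1 for RPS15 (0.0809), RPS12 (0.103) and RPL10A (0.141), without iCSC 2 for RPL14 (0.140), RPS15 (0.0864), RPS12 (0.0651) and RPL41 (0.115), and without Sphere 1 for RPL10A (0.0504). Over all alternatives the adjusted p reached from 0.00903 to 0.831 for RPL14, 0.0160 to 0.774 for RPS15, 0.0114 to 0.205 for RPS12, 0.00414 to 0.146 for RPL41 and 0.0125 to 0.200 for RPL10A. The low end for RPL41 belongs to the fit with chromosome medians removed, in which it was lower in iCSC (-0.33).

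**Figure D3:**
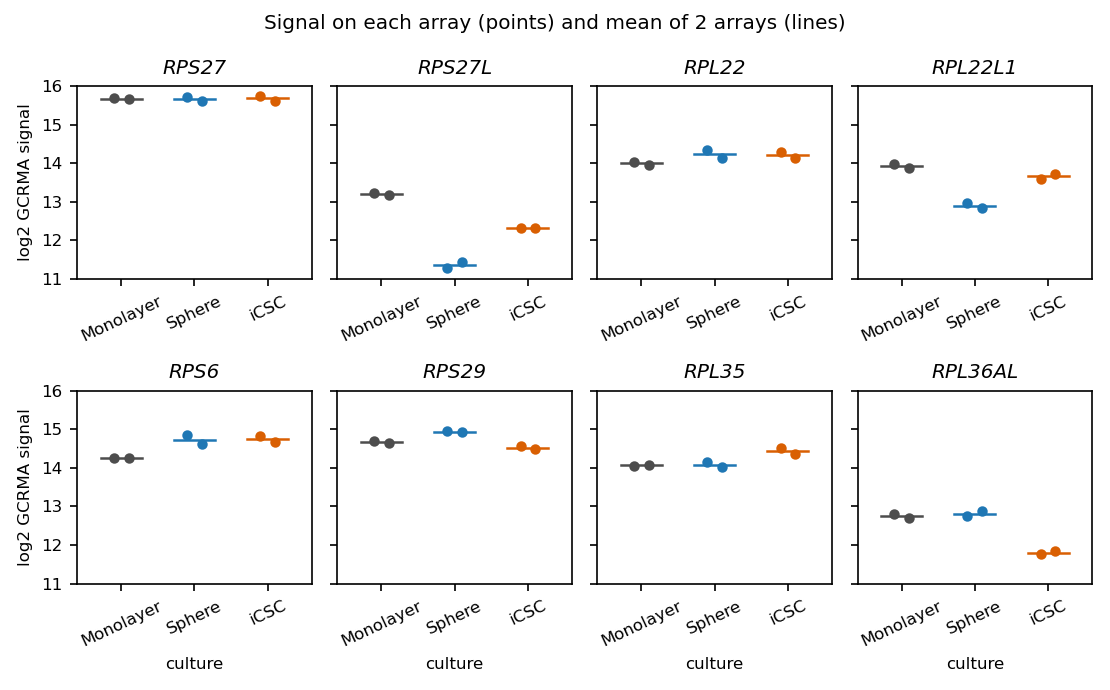
Log2 GCRMA signal (vertical axis) of 8 genes on each array (points) with the mean of 2 arrays per culture (lines), for Monolayer, Sphere and iCSC. RPS27L and RPL22L1 are lowest in Sphere while RPS27 is level at 15.60 to 15.75, RPS6 is above Monolayer in both spheroid cultures, RPS29 turns from highest in Sphere to lowest in iCSC, and RPL35 is highest and RPL36AL lowest in iCSC.

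Few members linked to an inherited human disease were called. RPS19, the gene most often mutated in Diamond-Blackfan anaemia, an inherited failure of red cell production, read 14.94 and 14.88 in Monolayer, 14.94 and 14.88 in Sphere, and 14.88 and 14.78 in iCSC. Its arrays overlapped in every comparison and its differences were 0.00, -0.08 and -0.08 (adjusted p = 0.974, 0.369 and 0.347). Of 14 tested genes of that disease, 1 was called higher and 0 lower in Sphere against Monolayer, where 30.0% and 29.1% of all tested genes were. In iCSC against Sphere the counts were 1 and 1, beside 19.3% and 19.2% of all tested genes. In iCSC against Monolayer they were 2 and 0, beside 29.0% and 26.6%. The called genes were RPS29, RPL35 and RPL11, as given above. RPS4X, a small-subunit gene on the X chromosome, read 14.79 and 14.80 in Monolayer, 14.95 and 14.76 in Sphere, and 14.85 and 14.80 in iCSC, with differences of 0.06, -0.03 and 0.03.

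Among the paralogs with restricted expression, RPL39L read low but above the limit. It is a paralog of the exit-tunnel protein RPL39, best known from testis, and read 6.81 and 6.62 in Monolayer, 7.03 and 7.05 in Sphere, and 6.96 and 7.12 in iCSC. Both spheroid cultures lay 0.32 to 0.33 above Monolayer without overlap, which was not called (SE 0.16, limma adjusted p = 0.130 and 0.132). RPL39 read between 14.94 and 15.09 on all arrays, and its differences of 0.02, 0.10 and 0.12 were not called.

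Of 5 tested relatives outside the symbol rule, 1 was lower in Sphere against Monolayer, 1 was higher and 3 lower in iCSC against Sphere, and 4 were lower in iCSC against Monolayer. Over all tested genes 29.1% were lower in the first comparison, 19.3% higher and 19.2% lower in the second, and 26.6% lower in the last. The last count was 2 without Monolayer 1, Monolayer 2 or iCSC 1. RPL22L1, the paralog of RPL22, fell from 13.92 ± 0.07 in Monolayer to 12.90 ± 0.10 in Sphere (mean ± SD, n = 2; log2 -1.02, SE 0.08, limma adjusted p = 0.000105). In iCSC it stood at 13.66 ± 0.09, which was 0.76 above Sphere (adjusted p = 0.000775). RPL22, an RNA-binding large-subunit protein, read 14.02 and 13.96 in Monolayer, 14.35 and 14.13 in Sphere, and 14.30 and 14.14 in iCSC on its brightest probe set. Its differences of 0.25, -0.02 and 0.22 were not called (adjusted p = 0.0635, 0.894 and 0.0856).

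RPL36AL, a retrogene copy related to RPL36A, read 12.76 ± 0.08 in Monolayer, 12.81 ± 0.09 in Sphere and 11.80 ± 0.06 in iCSC (mean ± SD, n = 2). It was about level between Monolayer and Sphere (0.05, adjusted p = 0.641) and 2.0-fold lower in iCSC than in Sphere (log2 -1.0, SE 0.08, adjusted p = 0.000234). RPL26L1 stood at 11.66, 11.45 and 11.13 and was lower in iCSC than in Monolayer by 0.53 on the log2 scale (log2 difference -0.53, adjusted p = 0.00331). FAU, which encodes the small-subunit protein RPS30 as a fusion with a ubiquitin-like protein, stood at 14.16, 14.34 and 13.97, with iCSC lower than Sphere (-0.37, adjusted p = 0.00563). RPL7L1 stood at 12.89, 12.80 and 12.96 and was not called in any comparison.

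Dimmer probe sets of the same genes often showed larger differences than the bright ones. Of the 117 single-symbol probe sets of the family, 94 passed the limit, and 25 genes had several that passed. In 18 of these 25 genes the dimmest passing probe set had a larger difference than the brightest between Sphere and Monolayer. The count was 20 between iCSC and Sphere and 19 between iCSC and Monolayer. Dim probe sets often had larger errors as well, and many of their differences were not called. For RPL38 the SE was 0.34 on the dimmest and 0.07 on the brightest in Sphere against Monolayer. The share over all genes with several passing probe sets was not computed, so the counts do not show a trait of this family. For RPL22, 3 probe sets with means of 14.03 to 14.15 gave 0.25, 0.33 and 0.25 in Sphere against Monolayer (limma adjusted p = 0.0672, 0.0168 and 0.0594). The called one of these was also called in iCSC against Monolayer (0.27, adjusted p = 0.0362). In Sphere against Monolayer, 2 others with means of 11.42 and 11.17 gave 1.08 and 1.42 (adjusted p = 0.00322 and 0.00200). The signal of the last of these was 10.31 and 10.30 in Monolayer, 12.02 and 11.42 in Sphere, and 11.71 and 11.23 in iCSC, so both spheroid cultures lay above Monolayer on every array.

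Some dim probe sets gave a different picture of a gene altogether. For RPL37, the brightest probe set, with a mean of 15.07, differed by 0.08, whereas 2 others with means of 9.62 and 9.36 differed by 2.33 and 2.09 (adjusted p = 0.00300 and 0.00339). RPS15A was the only gene with probe sets called both ways in Sphere against Monolayer. Its brightest probe set differed by 0.04, and a dimmer one rose from 7.41 and 7.43 in Monolayer to 10.87 and 10.04 in Sphere. The dimmest that passed read 5.46 and 5.67 in Monolayer and 4.40 and 3.93 in Sphere. Its fitted fall of 1.40 on the log2 scale, and with it the call both ways, thus rests on Sphere values under the limit of log2 5. For RPS21 the brightest gave 0.03 and the dimmer one -0.75 (adjusted p = 0.00273). Which transcripts these probe sets detect is not given in the sources used here, and the part of array saturation or of hybridisation to related sequences in the difference was not tested. Of the 56 chosen probe sets, 15 carry the suffix x_at and 28 the suffix s_at, which the platform gives to sets whose probes may match more than 1 transcript.

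The members' small differences were set beside those of the other tested genes on the same chromosome. These medians differed between the cultures on several chromosomes. On chromosome 9, which carries RPL35, RPL12 and RPS6, the medians of 414 other genes in the 3 comparisons, in the order used above, were -0.04, 0.46 and 0.41, and the median of these 3 members was 0.08, 0.35 and 0.43. On chromosome 14, which carries RPS29 and RPL36AL, the medians of 342 other genes were 0.04, -0.67 and -0.59, beside 0.26, -0.42 and -0.15 for RPS29. On chromosome 15, which carries RPS27L and RPLP1, they were -0.46, 0.47 and 0.01 over 345 genes. RPS27L differed by -1.84, 0.96 and -0.87, larger in size than the chromosome's median each time, and RPLP1 by -0.13, 0.30 and 0.17.

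Chromosome 3, with RPL14, RPL24, RPL29, RPL32, RPL35A and RPL39L, had medians of -0.46, 0.03 and -0.41 over 579 other genes, and its 6 members -0.16, 0.07 and -0.08. RPL37A lies on chromosome 2, where 741 other genes had a median of 0.29 in Sphere against Monolayer and 0.27 in iCSC against Monolayer, beside 0.34 and 0.40 for RPL37A. RPL41 and RPL6 lie on chromosome 12, where the medians of 567 other genes were 0.49 and 0.54 in these 2 comparisons, beside 0.11 and 0.20 for RPL41 and 0.05 and 0.10 for RPL6. Across the 53 tested members, which share arrays and chromosomes and are not independent, Pearson's r between a member's difference and its chromosome's median was 0.38, 0.58 and 0.47 for the 3 comparisons, and Spearman's rho was 0.42, 0.51 and 0.59. Without RPS27L, r was 0.31, 0.53 and 0.60.

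When each chromosome's median was removed before the fit, 4 of the 7 members called between Sphere and Monolayer stayed called in the same direction. Of the 5 called between iCSC and Sphere and the 11 called between iCSC and Monolayer, RPS27L alone did. RPS29 turned to a called rise of 0.24 in iCSC against Sphere (limma adjusted p = 0.0308) and of 0.47 in iCSC against Monolayer (adjusted p = 0.00133), and RPL41 turned to a called fall in iCSC against Monolayer (-0.33, adjusted p = 0.00414). RPL35 and RPL12 were then at -0.07 and -0.09 in iCSC against Sphere. Other members became called, so that 14, 6 and 14 members were called in the 3 comparisons, in place of 7, 5 and 11. DNA copy number was not measured here, and its part in these values was not tested.

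**Figure D4:**
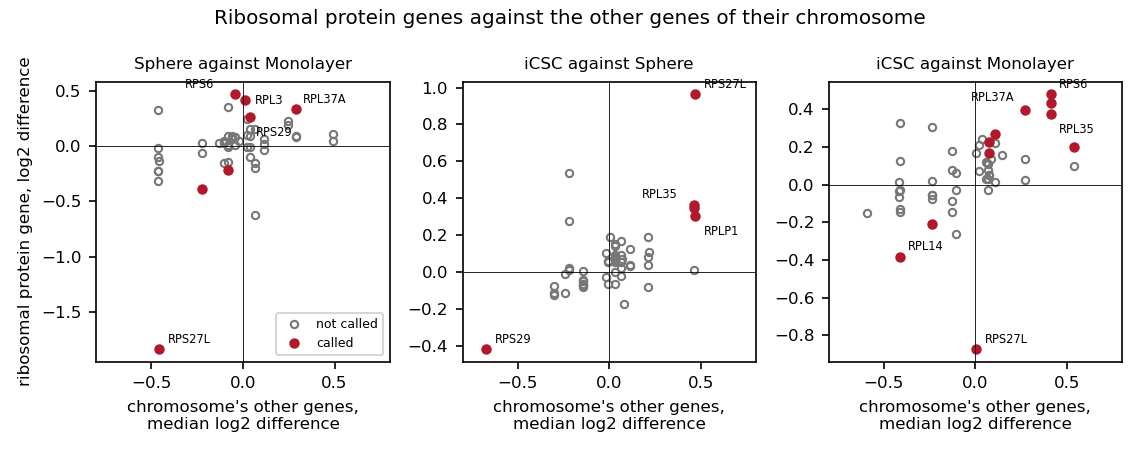
Log2 difference of each tested ribosomal protein gene (vertical axis) against the median log2 difference of the other tested genes on its chromosome (horizontal axis), 1 panel per comparison, with called members filled in red and uncalled ones open. RPL35, RPL12 and RPS6 stand where the chromosome's median is 0.41 in iCSC against Monolayer, RPS29 at -0.67 in iCSC against Sphere, and RPS27L lies far from the other points in the panels against Monolayer.

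Beside the quiet cytosolic family, the genes for the ribosome of the mitochondrion and for ribosome assembly had larger shares of lower genes in the spheroid cultures than the 29.1% and 26.6% over all tested genes. Of 75 mitochondrial ribosomal protein genes, 44 fell and 6 rose in Sphere against Monolayer, with a median of -0.39 on the log2 scale against 0.01 over all tested genes. In iCSC against Monolayer 41 fell and 5 rose (median -0.34), and in iCSC against Sphere 10 fell and 8 rose (median 0.02). Over all tested genes 30.0% rose in Sphere and 29.0% in iCSC against Monolayer, and 19.2% fell and 19.3% rose in iCSC against Sphere. The count that fell was 29 and 24 without Monolayer 1 in the comparisons with Monolayer. The count that rose in iCSC against Monolayer was 3 without Monolayer 1 or Monolayer 2. In iCSC against Sphere the count that fell was 3 without Monolayer 1 or Monolayer 2, 2 without Sphere 1 or Sphere 2 and 4 without iCSC 1, and the count that rose was 2 without Sphere 1. MRPS25 and MRPS14, of the mitochondrial small subunit, fell by 1.90 and 1.15 on the log2 scale in Sphere and by 1.51 and 1.37 in iCSC (limma adjusted p up to 0.00103), and MRPL23 rose by 0.80 and 0.64 (adjusted p = 0.000853 and 0.00254).

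Of 41 tested ribosome biogenesis factors, 20 fell and 6 rose in Sphere against Monolayer (median -0.32). In iCSC against Monolayer 15 fell and 8 rose (median -0.13). Over all tested genes 29.1% and 26.6% fell and 30.0% and 29.0% rose in these comparisons. TSR1, needed for late maturation of the small subunit, stood at 11.21 in Monolayer, 9.58 in Sphere and 10.41 in iCSC, and each pair of cultures differed (log2 -1.64, 0.84 and -0.80; adjusted p = 2.5e-05, 0.00105 and 0.000774). DDX10, an RNA helicase of the small-subunit pathway, fell by 1.13 and 0.88 on the log2 scale against Monolayer, and WDR12, of the complex that processes large-subunit RNA, rose by 0.87 and 0.73 (adjusted p up to 0.000594). Without Monolayer 1 or Monolayer 2 the count that fell in Sphere was 13, and the count that rose was 3 and 2. In iCSC the count that rose was 4 without Monolayer 2.

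RNA polymerase I transcribes the large ribosomal RNA precursor. Of 20 genes for it and its factors, 10 were lower and 1 higher in Sphere against Monolayer (median -0.34). In iCSC against Monolayer 9 were lower and 2 higher (median -0.20). Over all tested genes 29.1% and 26.6% were lower and 30.0% and 29.0% higher in these 2 comparisons. For iCSC against Sphere the shares over all tested genes were 19.3% higher and 19.2% lower. In iCSC against Sphere 6 were higher and 1 lower (median 0.22), with 3 higher without Sphere 1 or Sphere 2. The count of higher genes was 0 in Sphere against Monolayer without Monolayer 1 or Sphere 1, and 1 in iCSC against Monolayer without any single array but Monolayer 2. The lower count of iCSC against Sphere was 0 without Sphere 1 or Sphere 2 and 2 without iCSC 2. The subunit gene POLR1E stood at 9.05, 8.12 and 9.36 in Monolayer, Sphere and iCSC, with log2 differences of -0.93 and 1.24 for Sphere against Monolayer and iCSC against Sphere (adjusted p = 0.000751 and 0.000420). It lies on chromosome 9, whose medians are given above. Of 7 tested chaperones dedicated to single ribosomal proteins, 4 were lower in Sphere against Monolayer (29.1% of all tested genes). In iCSC against Sphere 3 were higher and 1 lower (19.3% and 19.2% of all), and in iCSC against Monolayer 2 were higher and 4 lower (29.0% and 26.6% of all). The 3 higher became 0 without Monolayer 1, Monolayer 2, Sphere 2 or iCSC 2 and 1 without iCSC 1, and the 1 lower became 0 without any single array but iCSC 2. The 2 higher became 0 without Monolayer 1 or Monolayer 2 and 1 without iCSC 2, and the last 4 lower became 2 without Monolayer 1. GRWD1, a chaperone of RPL3, stood at 8.80, 7.55 and 7.57 and was lower than Monolayer in both spheroid cultures (log2 -1.25 and -1.23, adjusted p = 0.000494 and 0.000639).

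Of 29 tested translation initiation factors, 13 fell and 4 rose in Sphere against Monolayer (median -0.24), and 13 fell and 2 rose in iCSC against Monolayer (median -0.23), beside 29.1% and 26.6% of all tested genes that fell and 30.0% and 29.0% that rose. The count that fell in Sphere was 5 without Monolayer 1, 7 without Monolayer 2, 7 without Sphere 1 and 8 without Sphere 2, and in iCSC it was 5 and 6 without Monolayer 1 and Monolayer 2. The count that rose was 1 without Monolayer 1, Monolayer 2 or Sphere 1 in Sphere, and in iCSC it was 1 without any single array but iCSC 2. EIF3J, a loosely bound part of the eIF3 complex, fell by 1.27 on the log2 scale in Sphere and by 0.78 in iCSC (adjusted p = 4.7e-05 and 0.000563).

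In the comparisons with Monolayer, the other genes listed as TOP mRNAs had more genes higher than lower. In iCSC against Sphere, 2 of 18 tested rose and 3 fell (median -0.01), where 19.3% and 19.2% of all tested genes did. Of the 15 listed genes with an entry for their start, 13 had the motif searched above. Of 18 tested, 8 rose and 3 fell in Sphere against Monolayer (median 0.18), and 8 rose and 2 fell in iCSC against Monolayer (median 0.11). Of all tested genes, 30.0% rose and 29.1% fell in the first of these comparisons, and 29.0% and 26.6% in the second. The count that rose in Sphere was 4 without Monolayer 1 or Monolayer 2 and 5 without Sphere 1, and in iCSC it was 3 without Monolayer 1 and 4 without Monolayer 2 or iCSC 1. The count that fell in iCSC was 0 without Monolayer 1 or Monolayer 2 and 1 without iCSC 1 or iCSC 2. EIF4B, a helper of the eIF4A helicase, rose by 1.27 and 1.16, and the histone chaperone gene NAP1L1 by 0.83 and 0.82 (adjusted p up to 0.00129). Both lie on chromosome 12, with medians of 0.49 and 0.54. VIM, also on the mesenchymal list, stood at 15.07, 14.02 and 14.80 and fell by 1.06 on the log2 scale in Sphere (adjusted p = 0.000348). The elongation factor gene EEF1D was lower in Sphere than in Monolayer (log2 -0.54, limma adjusted p = 0.000908). Its difference in iCSC against Monolayer was -0.18 (adjusted p = 0.0704).

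Of 14 tested genes of mTORC1 and the TOP mRNA regulators, 7 rose and 1 fell in each comparison with Monolayer (medians 0.35 and 0.27), beside 30.0% and 29.0% of all tested genes higher and 29.1% and 26.6% lower, with 3 and 4 risen without Monolayer 1 and 4 in each without Monolayer 2. The lower count in Sphere was 0 without any 1 of the Monolayer or Sphere arrays and 2 without iCSC 1 or iCSC 2, and in iCSC it was 2 without iCSC 2. DEPTOR, an inhibitor bound to mTOR, was under log2 5 on both Monolayer arrays and stood at 7.39 ± 0.41 in Sphere and 9.25 ± 0.86 in iCSC (mean ± SD, n = 2). It was at least 5.23-fold higher in Sphere and at least 19.1-fold higher in iCSC (limma adjusted p = 0.000195 and 5.5e-05). EIF4EBP2, a repressor of cap-dependent translation, rose by 1.09 and 0.96 (adjusted p = 0.000107 and 0.000247). These are mRNA levels, and kinase activity was not measured.

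**Figure D5:**
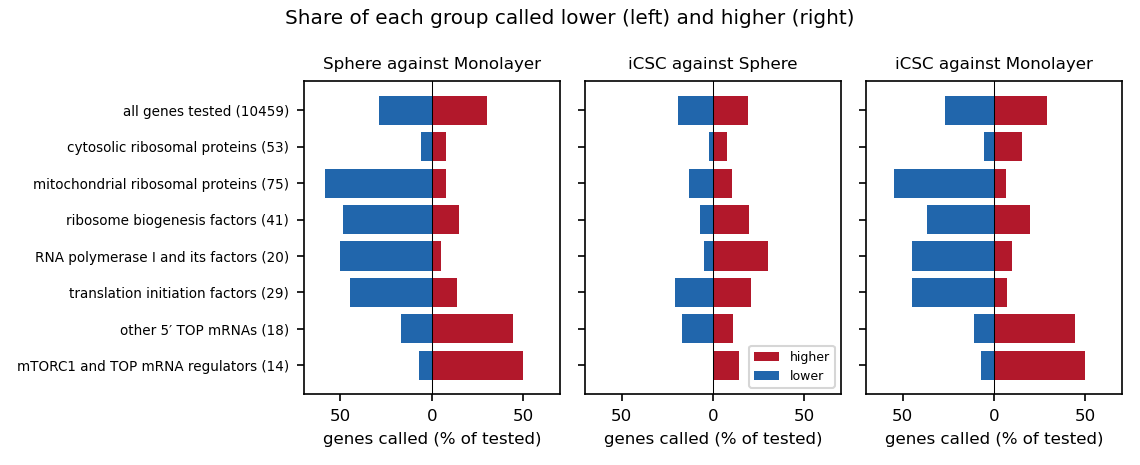
Share of tested genes (horizontal axis, percent) called lower (blue, to the left) and higher (red, to the right) for all tested genes, the cytosolic ribosomal proteins and 6 related lists, with the number tested in brackets, 1 panel per comparison. The cytosolic family has short bars on both sides (7.55% higher and 5.66% lower in Sphere against Monolayer, where all tested genes have 30.0% and 29.1%), while mitochondrial ribosomal proteins lean to the left with 44 and 41 of 75 lower.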

How the data were processed

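Per the labels' protocols, total RNA was extracted on RNeasy columns, and biotin-labelled amplified RNA was made with the MessageAmp Premier kit. The deposited value table holds log2 signals for 54675 probe sets on 6 Affymetrix arrays, which the authors computed with GCRMA, per the submitters' processing notes. The notes name Partek as well. The sources used here give neither the versions and settings of these tools nor their order. GCRMA corrects background by probe sequence and brings arrays to a common distribution, so a shift of all genes would not be seen.

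Samples were grouped by their titles. Symbols came from the platform annotation, updated by Entrez identifier against RefSeq (41037 probe sets matched): 41091 probe sets carried a single symbol, 1801 several and 11721 none. Single-symbol probe sets at log2 5 or more on at least 2 arrays were kept, 1 per gene with the highest mean, giving 10459 genes. limma 3.58.1 in R 4.3.3 fitted a mean per culture over all 6 arrays (3 residual degrees of freedom, eBayes with a trend, two-sided contrasts, Benjamini-Hochberg over all tested genes, called under 0.05). Where every array of a culture was under log2 5, the fold was computed against 5 and is written as "at least". For several probe sets of a gene, a separate fit of all passing single-symbol probe sets was used. The fit was tested on simulated data. Figures were drawn with matplotlib 3.10.9.

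The members and lists were chosen with earlier results of these data known. Named genes were the 8 called members with the largest rise and fall per comparison without overlap of arrays, a list of members and relatives named whatever their values, and up to 4 called genes per direction of each other list, of which part is printed. Genes named for their further probe sets, RPL37, RPS15A and RPS21, and RPL27A and RPL36A were chosen after their values were seen. Alternatives were the filter, normalization and centring, chromosome medians, choice of probe set, moderation, a replicate block and leaving out each array. Replicate numbers were not used as pairs.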

Additional observations from a re-analysis of the deposited data

How the results depend on the processing

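With 2 arrays per culture, small differences decide most calls. The bright probe sets lie near the top of the array's range, and the part of saturation was not tested. RPS27L kept its direction and call in all 3 comparisons under each of the 17 alternatives that held it. It was absent from the fit without x_at and s_at probe sets, because its passing probe sets carry the suffix s_at. In Sphere against Monolayer, the 4 members called higher became 17 with arrays centred on the brightest other genes (median 0.15, where this centring moved every gene by 0.12), 9 with chromosome medians removed, 7 with the mean over probe sets, 2 without variance moderation, 2 without a trend and 7 with a replicate block. The 3 called lower became 6 with renewed quantile normalization, 5 with chromosome medians removed, 6 with the mean over probe sets, 1 without moderation and 5 with the block. In iCSC against Sphere, the 4 higher became 8 with the mean over probe sets, 1 without moderation and 1 without a trend, and the 1 lower became 2 with centring on bright genes and 2 with chromosome medians removed. In iCSC against Monolayer, the 8 higher became 5 without a filter, 5 with median centring, 17 with centring on bright genes, 3 without moderation, 4 without a trend and 13 with the block, and the 3 lower became 1 without a filter, 5 with quantile normalization, 5 with median centring, 1 with centring on bright genes, 1 without x_at and s_at probe sets, 1 without moderation and 1 without a trend. Over all tested genes, the replicate deviations of the cultures correlated at 0.02, -0.05 and 0.17. Within the family, replicate 1 read higher for 46, 48 and 45 of 56 members in Monolayer, Sphere and iCSC. The correlations over all genes therefore do not settle whether the arrays are paired for these members. The block was not used for the main results and is given only here.

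Leaving out each array gave 2 to 8 higher, 1 to 7 lower and a median of -0.02 to 0.07 in Sphere against Monolayer, 1 to 6, 1 to 1 and -0.04 to 0.10 in iCSC against Sphere, and 3 to 10, 1 to 4 and 0.04 to 0.10 in iCSC against Monolayer.

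With chromosome medians removed, these turned, and the cause was not tested. In Sphere against Monolayer: RPL24 0.36, RPL31 -0.24, RPL41 -0.38, RPL6 -0.45, RPLP1 0.31, RPL35A 0.44 and RPS7 -0.23. In iCSC against Sphere: RPS6 -0.42, RPS29 0.24, RPS23 0.19, RPS14 0.24, RPL35 -0.0682, RPLP1 -0.14 and RPL12 -0.0855. In iCSC against Monolayer: RPS23 0.34, RPS15 0.0255, RPL6 -0.44, RPL41 -0.33, RPL37 0.37, RPL35 -0.0194, RPL32 0.27, RPL24 0.38, RPL22L1 0.16, RPL14 0.0322, RPS29 0.47 and RPS7 -0.27. The mean over probe sets turned RPS21 to -0.36 in Sphere and -0.24 in iCSC against Monolayer, and RPL37 to 1.16 and RPS23 to 0.34 in iCSC. Without x_at and s_at probe sets, RPL37 was 2.0 in iCSC, and RPS21 was -0.75 in Sphere and -0.61 in iCSC.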
